A study of Bos taurus with 14 samples.

Results

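The miRNAs bta-miR-140, bta-miR-28, bta-miR-151-5p and bta-miR-151-3p are 4 of the 1030 mature miRNAs listed in the count table of peripheral white blood cells (PWBC) from beef heifers, and all 4 were among the 341 miRNAs abundant enough to test. They were taken by name, as miRNAs whose genes lie inside the protein-coding genes WWP2, LPP and PTK2. bta-miR-140 was also chosen by its difference between the groups in these same heifers, so its difference is described here with no test, whereas the other 3 were selected on their host genes with earlier results of the data known.

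The study asked whether miRNAs in the blood of a heifer at weaning differ with her later breeding outcome. PWBC were collected at weaning from Angus-Simmental crossbred heifers, none of which had been bred at that time, and all later went through synchronization of estrus, artificial insemination (AI) and a season with bulls. The 7 fertile heifers (FH) became pregnant to AI and the 7 subfertile heifers (SFH) did not become pregnant, the groups were chosen to be alike in weaning age and body weight, and small RNA was sequenced once for each of the 14 heifers. Each library is a different animal, and the cells were a mixture of leukocytes that was not sorted.

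A miRNA is cut from a hairpin precursor by the enzymes Drosha and Dicer, and either arm of the hairpin, named 5p or 3p, can be loaded into an Argonaute protein and guide the repression of target mRNAs. Many miRNAs are encoded in introns and are transcribed together with their host gene. WWP2 encodes a ubiquitin ligase, LPP a LIM domain protein of cell adhesion sites and PTK2 the focal adhesion kinase. miR-140 is best known from cartilage, where it is highly expressed with WWP2, and it is found at lower levels in many other tissues. miR-28 and miR-151 belong to 1 family of related precursors, to which miR-708 belongs as well.

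In RefSeq's annotation of the ARS-UCD2.0 assembly MIR140 lies within WWP2, MIR28 within LPP and MIR151 within PTK2. It was read for positions of genes only, so exon, intron and strand are not given here, nor are coordinates, since the counts were made on the ARS-UCD1.2 build. Lying inside a protein-coding gene was common among the miRNAs measured, at 216 of the 332 tested miRNAs that could be matched to the annotation, or 65.1%. bta-miR-140 and bta-miR-28 are each listed under a name that gives no arm, so the balance of arms can be read for miR-151 alone. The mRNA of the host genes was not analysed here.

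All 4 members were abundant in every heifer. The heifers had 1754971 to 5468341 counts on mature miRNAs in all, with a median of 3319368 in FH and 2663375 in SFH. The lowest count of any member in a heifer was 1372, for bta-miR-28. Levels are given as deposited CPM (read counts scaled to a common total), and as mature miRNAs are of similar length they were not divided by length.

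bta-miR-151-5p was the most abundant by its mean, at 8573 ± 2159 CPM (SD, n = 14), and it ranked at place 27 of the 341 tested miRNAs. bta-miR-140 followed at place 29 with 8266 ± 3659 CPM. bta-miR-151-3p was at place 40 with 5012 ± 1759 CPM and bta-miR-28 at place 71 with 1075 ± 253 CPM. The order of the first and second was not stable between animals, as bta-miR-151-5p exceeded bta-miR-140 in 9 of 14 heifers. bta-miR-140 exceeded bta-miR-151-3p in 12 of 14 heifers, and bta-miR-28 was the lowest of the 4 in all 14. The miRNA next above bta-miR-151-5p was bta-miR-98 at 9035 ± 1700 CPM (SD, n = 14), a relative of let-7, and it exceeded bta-miR-151-5p in 7 of the 14 heifers, so this pair of neighbours could not be ordered. Between bta-miR-151-5p and bta-miR-140 lay bta-let-7b at 8500 ± 4072 CPM, which exceeded bta-miR-140 in 6 of 14 heifers. bta-miR-320a followed below bta-miR-140 at 8149 ± 4298 CPM and was lower than it in 8 of 14. The neighbours of bta-miR-151-3p were bta-miR-186 above and bta-miR-16a below, each on its own side of the member in 8 of 14 heifers. Those of bta-miR-28 were bta-miR-486, a miRNA abundant in red cells, and bta-miR-10a, each on its own side in 7 of 14 heifers.

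**Figure D1:**
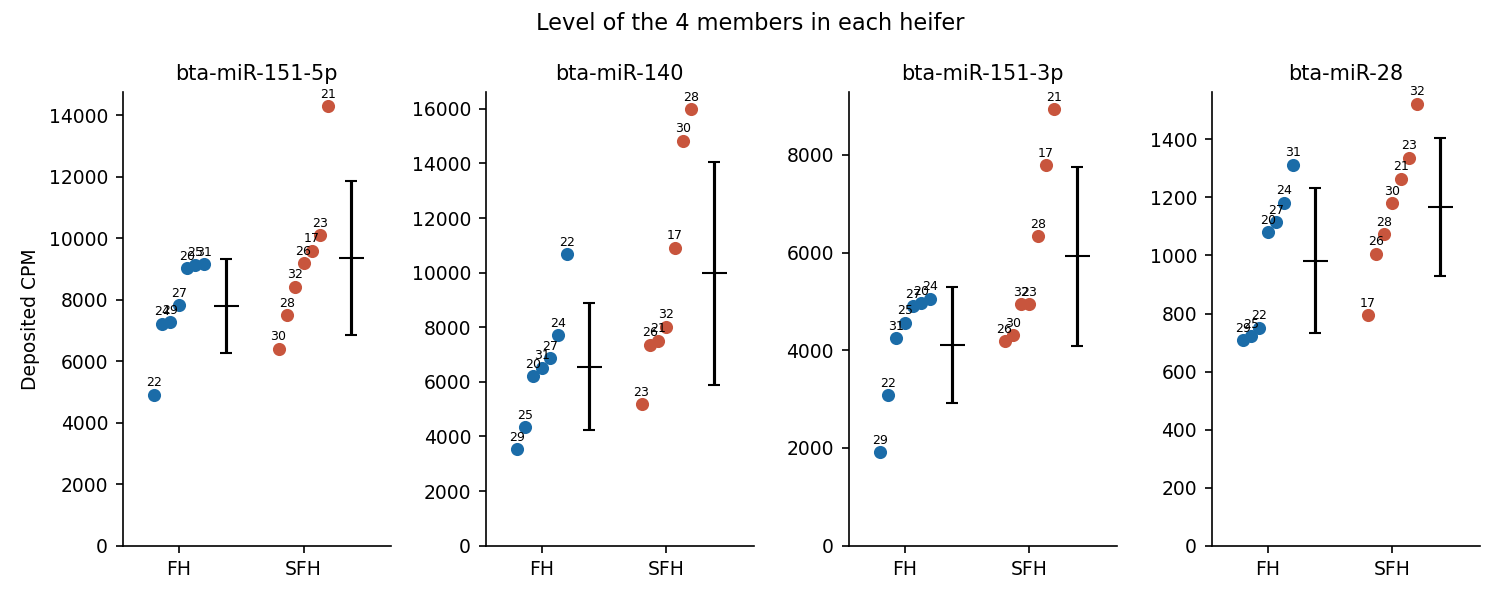
Deposited CPM (vertical axes, each from 0) of the 4 members in each heifer, in FH (blue) and SFH (red), with heifer numbers beside the points, which are placed from the lowest to the highest within a group. The horizontal bar is the mean and the vertical bar is ± 1 SD (n = 7). bta-miR-140 reached 14839 and 15995 CPM in SFH heifers 30 and 28, above the highest FH heifer at 10685 CPM, and the groups overlapped for every member.

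bta-miR-140 was higher in SFH than in FH by its mean and its median. In FH it lay between 3541 CPM (heifer 29) and 10685 CPM (heifer 22), with a median of 6524 CPM and a mean of 6555 ± 2331 CPM (SD, n = 7). In SFH it lay between 5187 CPM (heifer 23) and 15995 CPM (heifer 28), with a median of 8028 CPM and a mean of 9976 ± 4091 CPM. SFH heifers 28, 30 and 17 were above every FH heifer, and 2 FH heifers, 25 and 29, were below every SFH heifer, while the remaining heifers overlapped. Of the 7 SFH heifers, 6 were above the FH median. The fitted log2 fold change (SFH over FH) was 0.57 ± 0.25 (SE, edgeR), or 1.48-fold.

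The study took a miRNA as different with a p-value no greater than 0.05 and a log2 fold change of 0.5 or more in either direction. In the edgeR fit made here these thresholds were passed by 13 of the 341 miRNAs, or 3.81%, and 5 of them, or 1.47%, were higher in SFH. With DESeq2 run here on the same counts, 16 of the 341 miRNAs passed the thresholds. Of the 4 members 1, bta-miR-140, passed them, and nothing can be read from this count because bta-miR-140 was chosen by that contrast. With Benjamini-Hochberg adjustment and the same limit of 0.05, edgeR called 0 of the 341 miRNAs (0%) and DESeq2 called 2, while the unadjusted p-values of 20 miRNAs were within it in edgeR. The place of bta-miR-140 past the thresholds rested on single animals: it was lost when any 1 of 6 heifers was left out (SFH 17, 28 or 30, or FH 20, 25 or 29), with log2 fold changes of 0.55, 0.43, 0.47, 0.55, 0.52 and 0.46 in that order. Without SFH heifer 17 or FH heifer 20 or 25 the log2 fold change stayed above 0.5, and it was the limit on the p-value that was not met.

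bta-miR-151-3p, the less abundant arm of miR-151, had the next largest difference of the 4. It lay between 1911 CPM (heifer 29) and 5054 CPM (heifer 24) in FH, with a median of 4566 CPM, and between 4192 CPM (heifer 26) and 8935 CPM (heifer 21) in SFH, with a median of 4946 CPM. The means were 4103 ± 1182 CPM and 5922 ± 1838 CPM (SD, n = 7). SFH heifers 21, 17 and 28 were above every FH heifer and FH heifers 22 and 29 were below every SFH heifer, while the others of both groups lay close together. The log2 fold change was 0.48 ± 0.21 (SE), with an edgeR adjusted p = 0.712, and it did not pass the thresholds. It passed both thresholds, before adjustment, in 8 of the 14 fits that left out 1 heifer, with values of 0.52 to 0.59 in these, whereas without SFH heifer 21 it was 0.34.

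bta-miR-151-5p, the other arm of the same hairpin, had a smaller log2 fold change. It lay between 4911 CPM (heifer 22) and 9152 CPM (heifer 31) in FH, with a median of 7816 CPM, and between 6409 CPM (heifer 30) and 14282 CPM (heifer 21) in SFH, with a median of 9189 CPM. The mean was 7790 ± 1532 CPM in FH (SD, n = 7) and 9357 ± 2513 CPM in SFH. SFH heifer 21 was the highest of all 14 and FH heifer 22 the lowest. On deposited CPM the 4 SFH heifers 17, 21, 23 and 26 were above every FH heifer. On that scale 1 FH heifer was below every SFH heifer and 0 FH heifers were above the SFH median, while the others overlapped. This depended on the scaling: on TMM-normalized CPM, as in the fit, FH heifer 25 (9428) was above SFH heifers 17 (9083) and 26 (9237). The log2 fold change was 0.19 ± 0.18 (SE), with an edgeR adjusted p = 0.947. Without SFH heifer 21 it was 0.03.

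bta-miR-28 had the lowest coefficient of variation of the 4 over the 14 heifers, at 23.6%, beside 25.2% for bta-miR-151-5p. Within FH its value was the higher of these members, at 25.4% beside 19.7%, and within SFH the lower, at 20.3% beside 26.9%. bta-miR-28 lay between 709 CPM (heifer 29) and 1313 CPM (heifer 31) in FH, with a median of 1080 CPM, and between 794 CPM (heifer 17) and 1523 CPM (heifer 32) in SFH, with a median of 1181 CPM. On TMM-normalized CPM FH heifer 29 (867) was above FH heifers 22 (722) and 25 (745), so its place as the lowest depended on the scaling. The means were 982 ± 249 CPM and 1168 ± 238 CPM (SD, n = 7), and the groups overlapped over most of their range. The log2 fold change was 0.19 ± 0.19 (SE), with an edgeR adjusted p = 0.947, and it was 0.14 to 0.29 over the fits that left out 1 heifer. bta-miR-708, which has the same seed as miR-28, was at 0 counts in all 14 heifers, which allows up to 3 counts per heifer, or 0.549 to 1.71 CPM.

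The log2 fold change was above 0 for all 4 members, as it was for 188 of the 341 miRNAs tested (55.1%), whose median was 0.06. Some animals were shared between members. On deposited CPM FH heifer 29 was the lowest of the 14 in bta-miR-140, bta-miR-28 and bta-miR-151-3p. Without it their log2 fold changes were 0.46, 0.14 and 0.36, and that of bta-miR-151-5p was 0.20. SFH heifers 17 and 28 were above every FH heifer in both bta-miR-140 and bta-miR-151-3p. The highest animals were not the same for all 4: SFH heifer 28 was the highest of the 14 in bta-miR-140 and was below the SFH median in bta-miR-28 and bta-miR-151-5p. SFH heifer 21, the highest in both arms of miR-151, was below the SFH median in bta-miR-140.

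**Figure D2:**
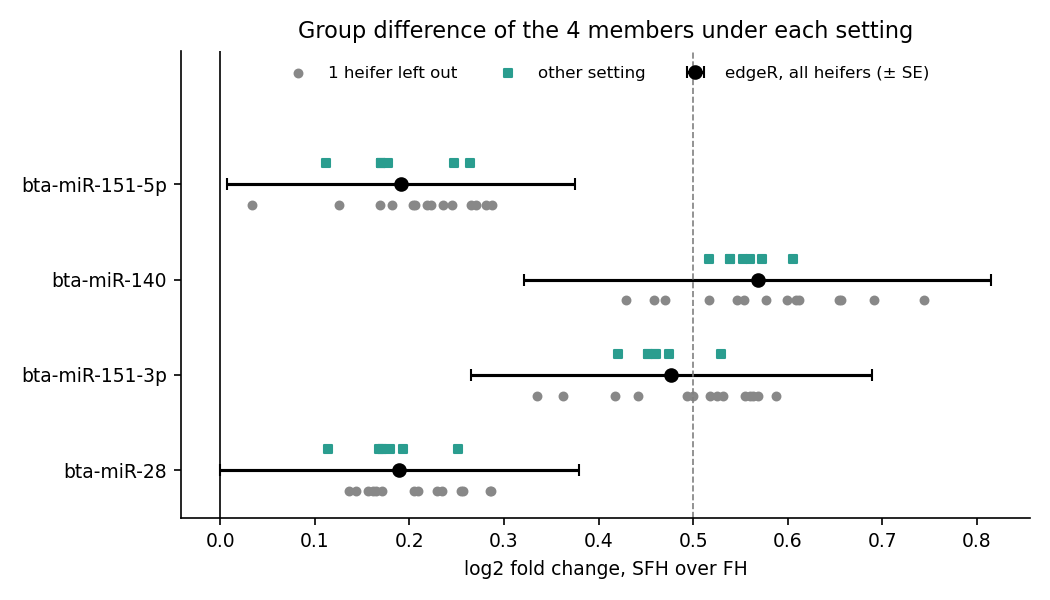
Log2 fold change of SFH over FH (horizontal axis) for the 4 members: black points with bars are the edgeR value ± SE over all 14 heifers, grey points are fits with 1 heifer left out, and green squares are the other scalings, filters, models and tools. The solid line marks 0 and the dashed line the 0.5 threshold, which lies within the grey points of bta-miR-140 (0.43 to 0.74) and of bta-miR-151-3p (0.34 to 0.59).

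The spread between heifers differed among the members as well. On the log2 scale of TMM-normalized CPM the SD over the 14 heifers was 0.32 for bta-miR-28, 0.35 for bta-miR-151-5p, 0.48 for bta-miR-151-3p and 0.58 for bta-miR-140. Of the 341 miRNAs, 9.09% had a smaller SD than bta-miR-28 and 10.6% a smaller SD than bta-miR-151-5p. For bta-miR-140 the share was 33.4%. Most of the 341 have low counts and large SDs, so the SDs were also set beside the 72 miRNAs with a mean of at least 1000 CPM, a limit set after the values were seen. Of these 36.1% had a smaller SD than bta-miR-28, 41.7% than bta-miR-151-5p, 73.6% than bta-miR-151-3p and 86.1% than bta-miR-140. bta-miR-140 was thus among the more variable of the abundant miRNAs by this SD, which includes the difference between the groups by which it was chosen. Its SD within the groups was 0.53 and was not set beside those of the 72. Its coefficient of variation was 35.6% within FH and 41.0% within SFH.

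A list of 40 other miRNAs known to lie in protein-coding host genes was set beside the members, and 35 of them were tested. Of these 0 passed the thresholds as higher in SFH, beside 1.47% of all 341 miRNAs, and 1, bta-miR-874, passed them as lower, beside 3.81% of all 341 in either direction. A list of 35 with so few calls cannot be told from that background, and edgeR gave it 0 adjusted calls. Their log2 fold changes ran from -2.46 (bta-miR-301a) to 0.48 (bta-miR-335), neither of which passed, with 18 of the 35 above 0, beside 55.1% of all miRNAs. Their median was 0.02, beside 0.06 over all 341 miRNAs.

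The arms of miR-151 were then compared within each heifer, a ratio that does not depend on how libraries are scaled. The 5p arm was the more abundant in all 14 heifers. It held between 54.2% of the reads of both arms in SFH heifer 28 (95% Wilson interval 53.8% to 54.7%) and 79.2% in FH heifer 29 (78.8% to 79.6%). Intervals of this width do not overlap between these heifers, although they cover counting error only.

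The ratio of 5p to 3p was 1.43 to 3.80 in FH, with a median of 1.82 and a mean of 2.06 ± 0.81 (SD, n = 7), and 1.18 to 2.19 in SFH, with a median of 1.60 and a mean of 1.63 ± 0.38. FH heifer 29 stood apart at 3.80, and the next highest heifer of all, SFH heifer 26, was at 2.19. Its bta-miR-151-3p was the lowest of the 14 heifers, while its bta-miR-151-5p, at 7263 CPM, was close to the FH median. Without heifer 29 the FH mean was 1.77 ± 0.28 (n = 6). The mean log2 ratio was 0.67 in SFH and 0.97 in FH, a difference (SFH minus FH) of -0.29, with a 95% interval of -0.78 to 0.16. In an exact permutation test, two-sided, a difference of this size or larger was common when the group labels were rearranged among the 14 heifers (p = 0.216, 7 heifers in each group). Without FH heifer 29 the difference was -0.13.

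**Figure D3:**
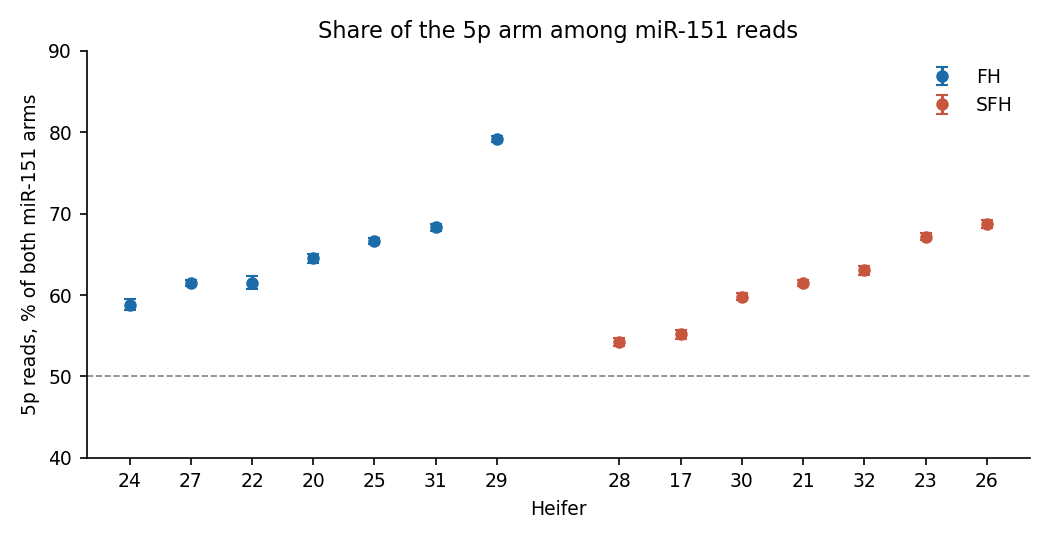
Reads of the 5p arm as a percent of all miR-151 reads (vertical axis, drawn from 40% to 90%) in each heifer, FH in blue and SFH in red, each group sorted by value, with 95% Wilson intervals as bars and equal arms as the dashed line. All 14 heifers lay above equal arms, with SFH heifer 28 the lowest (54.2%) and FH heifer 29 the highest (79.2%).

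For comparison, 31 names had both arms among the tested miRNAs. The log2 ratio of the arms had a smaller SD over heifers for miR-151, at 0.42, than for any of the other 30, many of which had an arm at under 100 counts in a heifer. Among these, miR-23b and miR-10174 had identical values and are not separate measurements. The median SD of the 31 was 2.19. In the 7 names with at least 100 counts on both arms in every heifer, a limit set after the values were seen, miR-151 again had the smallest SD and the median was 0.59. Its arms were also close to balance, with an absolute median log2 ratio of 0.72 against a median of 2.84 over these 7, of which 1, miR-423, was nearer to equal. FH heifer 29 had the highest ratio in 6 of the 31 names and in 1 of the 7, and its ratio was above the mean of the other heifers in 16 of the 31 and 5 of the 7. Its excess over that mean on the log2 scale was 1.19 for miR-151. It was of similar size in let-7a (1.54), miR-423 (1.16) and miR-6119 (1.22), where heifer 29 had the second highest ratio. It was smaller in miR-22 (0.21), and the ratio was below that mean in miR-142 (-0.45) and miR-425 (-0.65). In SDs of the other heifers the excess was 4.15 for miR-151, and 1.75, 1.79 and 1.69 for let-7a, miR-423 and miR-6119. A high ratio in this heifer was thus shared by some of the 7 names. Relative to the spread of the others it was largest among the 7 in miR-151, for which the heifer was singled out. Names under the limit of 100 counts in which it was highest included miR-9, miR-331 and miR-7857. There the excess was 2.79, 1.85 and 2.08, or 3.66, 3.06 and 2.37 SDs, with lowest arm counts of 24, 83 and 20. In miR-30b, also under the limit, its ratio was the lowest of the 14 heifers (-1.55).

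**Figure D4:**
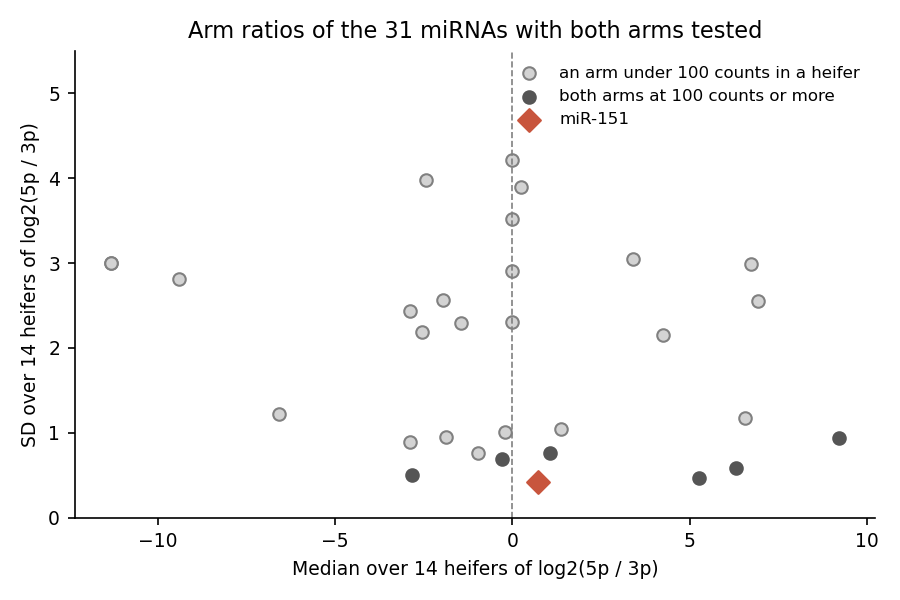
Median (horizontal axis) and SD (vertical axis) over 14 heifers of the log2 ratio of the 5p to the 3p arm for the 31 names with both arms tested. Dark points had at least 100 counts on both arms in every heifer, light points did not, the red diamond is miR-151 and the dashed line marks equal arms. miR-151 had the lowest SD, 0.42.

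How the members varied together was tested over the 6 pairs that 4 miRNAs make, on log2(TMM-normalized CPM + 0.5) with permutation tests. None of the 6 pairs passed after Benjamini-Hochberg adjustment over 14 heifers. The arms of miR-151, which come from 1 hairpin, had Pearson's r = 0.53 (permutation test, p = 0.0526, adjusted p = 0.282, n = 14) and Spearman's rho = 0.29 (permutation p = 0.317, adjusted p = 0.635). This relation rested on FH heifer 22 and SFH heifer 21, the lowest and the highest in bta-miR-151-5p, since r was -0.12 without them. Within the groups r was 0.30 in FH and 0.65 in SFH.

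bta-miR-140 and bta-miR-151-5p had negative coefficients that did not pass adjustment, with r = -0.46 (permutation test, p = 0.0939, adjusted p = 0.282, n = 14) and rho = -0.54 (permutation p = 0.0472, adjusted p = 0.283). Over the same 14 heifers r was -0.32 on deposited CPM (permutation test, adjusted p = 0.313) and -0.51 with RLE scaling (permutation test, adjusted p = 0.192). Without SFH heifers 28 and 30, the farthest from the median of bta-miR-140, r was -0.38 (permutation p = 0.223). Within FH r was -0.86 (exact permutation test, p = 0.00179, adjusted over 12 such tests 0.0214, n = 7), and within SFH it was -0.58 (exact permutation test, p = 0.165, adjusted 0.662, n = 7). The relation within FH was weaker without FH heifer 22, at r = -0.78 (exact permutation test, p = 0.0653, n = 6). Within FH the log2 total count of the library ran with these miRNAs in opposite directions, at r = -0.66 with bta-miR-140 and r = 0.64 with bta-miR-151-5p, and the part of depth in the relation was not tested. Whether the relation differed between the groups was not tested either. On residuals from the group means r was -0.69 over the 14 heifers (permutation test, adjusted p = 0.0368), and it was -0.62 with adjusted p = 0.103 when deposited CPM replaced TMM-normalized CPM.

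**Figure D5:**
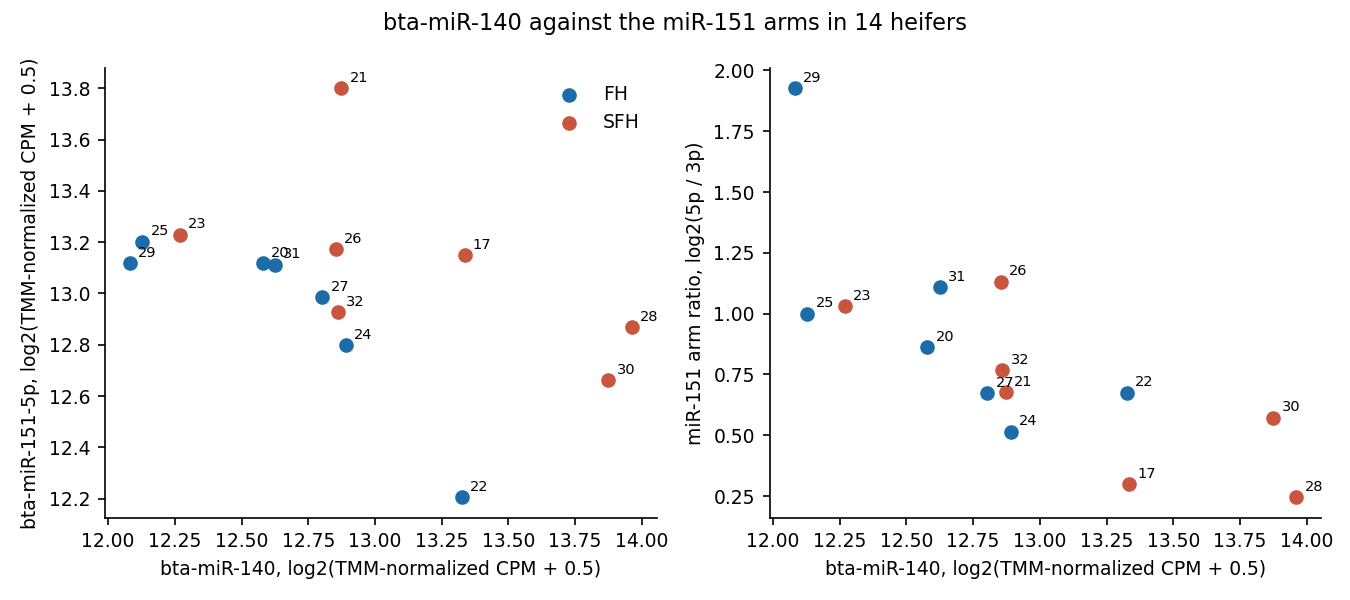
Level of bta-miR-140 in log2(TMM-normalized CPM + 0.5) (horizontal axes) against bta-miR-151-5p on the same scale (left) and against the log2 ratio of the miR-151 arms (right) in 14 heifers, FH in blue and SFH in red, with heifer numbers. bta-miR-140 and bta-miR-151-5p had r = -0.46, and FH heifer 22 and SFH heifer 21 lie at the lower and upper end of bta-miR-151-5p.

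The other 4 pairs had weak relations. r was 0.33 for bta-miR-140 with bta-miR-151-3p, 0.03 for bta-miR-140 with bta-miR-28 and 0.27 for bta-miR-28 with either arm of miR-151, and adjusted p-values of the permutation tests were 0.437 to 0.905. Spearman's rho for these pairs was between 0.01 and 0.35, with adjusted permutation p-values of 0.635 to 0.976. The signs of 2 of them were not stable: bta-miR-140 with bta-miR-28 was at r = -0.16 without FH heifer 25, and bta-miR-28 with bta-miR-151-5p at r = -0.077 without FH heifer 22.

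Each member had its own set of miRNAs with the most similar pattern over the 14 heifers, given as a description with r on the same scale. For bta-miR-140 these were bta-miR-532 (r = 0.95), bta-miR-142-5p, a miRNA of blood cells (r = 0.76), and bta-miR-186 (r = 0.73). For bta-miR-28 they were bta-miR-1468 (r = 0.70), bta-miR-10172-5p (r = 0.69) and bta-miR-660 (r = 0.69). For bta-miR-151-5p they were bta-miR-2320-3p (r = 0.79), bta-miR-24-3p (r = 0.75) and bta-miR-130b (r = 0.72). For bta-miR-151-3p they were bta-miR-425-5p (r = 0.85), bta-miR-10a (r = 0.80) and bta-miR-330 (r = 0.78). The 4 sets share no miRNA, and the arms of miR-151 were only at place 27 of 340 in each other's order. bta-miR-10172-5p and bta-miR-2320-3p had mean levels of 14.5 and 7.29 CPM and so rest on few counts.

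The likeness of bta-miR-532 to bta-miR-140 was the closest of these. The mean of bta-miR-532 was 572 ± 155 CPM in FH (SD, n = 7) and 751 ± 290 CPM in SFH, and bta-miR-140 was 9.99 to 16.6 times as high in the same heifer, with a median of 11.9. r was 0.98 within FH and 0.96 within SFH. It was 0.94 without SFH heifers 28 and 30, and rho was 0.89. The pattern most opposed to bta-miR-140 was that of bta-miR-423-5p, with r = -0.84. The median r of bta-miR-140 with the other 340 miRNAs was 0.06.

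Because PWBC are a mixture, fewer cells of a type and less RNA per cell cannot be told apart. The summed CPM of marker miRNAs of blood cells was therefore taken in each heifer. The lymphocyte markers (bta-miR-150, bta-miR-342 and bta-miR-155) lay between 58235 and 112855 CPM in FH (median 88824) and between 49143 and 117109 CPM in SFH (median 86262). The myeloid miRNA bta-miR-223 lay between 11921 and 22780 CPM in FH (median 17457) and between 15335 and 26640 CPM in SFH (median 19699). With it a list held both arms of bta-miR-142, which is found in lymphocytes as well as myeloid cells, and the sum of these 3 lay between 21272 and 35213 CPM in FH (median 23742) and between 23336 and 44970 CPM in SFH (median 36012). Leukocyte markers were thus abundant in every library, as the label of the cells says.

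The sum of bta-miR-223 and both arms of bta-miR-142 had r = 0.57 with bta-miR-140 over the 14 heifers. Taken singly, r was 0.05 for bta-miR-223, 0.76 for bta-miR-142-5p and 0.49 for bta-miR-142-3p, and lymphocyte markers had r = 0.23. Erythroid markers (bta-miR-451 and bta-miR-486, with bta-miR-144 at 0 counts) were at 1574 to 3713 CPM in FH (median 2166) and 1463 to 9236 CPM in SFH (median 2416). Their sum had r = 0.55 with bta-miR-140, and r was not taken for each singly. They differed from each other: the mean of bta-miR-451 was 1412 CPM in FH and 2398 CPM in SFH, and that of bta-miR-486 was 1081 and 1084 CPM. Markers of platelets and endothelium (both arms of bta-miR-126) were at 22.4 to 68.3 CPM in FH and 4.52 to 47.0 CPM in SFH, with r = 0.31. Of the markers of cartilage and other mesenchymal tissue, bta-miR-199b and bta-miR-214 were too low to be tested, and the list was at 165 to 293 CPM in FH and 145 to 558 CPM in SFH, with r = 0.05. Of the 13 markers tested in these 5 lists 0 passed the thresholds, which says little where 3.81% of all 341 miRNAs did, and the part of cell composition in the differences of bta-miR-140 was not tested.

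No relation of the members with depth passed the test. The log2 total count had r = -0.27 with bta-miR-140 (permutation test, p = 0.344, n = 14) and rho = -0.46 (permutation p = 0.101), and adjusted p-values over 5 such relations, the 4 members and the arm ratio, were 0.642 to 0.979. Within the groups r with depth was -0.66 in FH and 0.33 in SFH for bta-miR-140, and 0.64 in FH and -0.24 in SFH for bta-miR-151-5p. The arm ratio had r = 0.41 with depth (permutation test, p = 0.150, n = 14), and 0.54 without the 2 heifers farthest in depth (permutation p = 0.0675). With the log2 total count as a covariate the log2 fold change of bta-miR-140 was 0.56.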

How the data were processed

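Small RNA of PWBC was sequenced in 7 FH and 7 SFH heifers. The authors trimmed adapters and end bases with cutadapt, checked quality with FastQC 0.11.9 and MultiQC 1.12, aligned the reads to ARS-UCD1.2 and miRBase with miRDeep2, and deposited the raw counts per mature miRNA. CPM were deposited for 341 miRNAs, which equal the counts divided by their total over these miRNAs in all 4774 values, within 1e-06 CPM. The count table has 1207 lines and does not name precursors, and for a miRNA with several lines the line with the highest total was kept. PCR copies add spread that counting intervals do not cover.

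miRNAs with at least 1 CPM in at least 7 heifers were tested. The edgeR 4.0.16 quasi-likelihood F-test (R 4.3.3) was run on the counts with TMM factors and group as the only term. DESeq2 1.42.0, other scalings and filters, a depth covariate and leaving out each heifer were alternatives. Python 3.11.15 with scipy 1.17.1, pandas 2.3.3 and numpy 2.4.6 was used for exact permutation tests over 3432 arrangements of the heifers, permutation tests of correlations with 100000 resamples, two-sided, and Wilson intervals. The interval of the arm difference was obtained from the shifts that the permutation test did not reject. The arm ratio and log2 CPM used a pseudocount of 0.5. The members and lists were chosen with earlier results of these data known. Named were the members, bta-miR-708, the 3 miRNAs with the highest r for each member, the neighbours by mean CPM, and the lists of intronic and marker miRNAs. The miRNA with the lowest r, the miRNAs at the ends of the intronic list and the arm pairs other than miR-151 were named after their values were seen. No 2 heifers had identical counts.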

Additional observations from a re-analysis of the deposited data

Results flagged for a closer look

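The ratio of the 5p to the 3p arm of miR-151 was 3.80 in FH heifer 29. Its gap to the nearest FH heifer was 0.693 of the range of the group, above Dixon's 95% critical value for 7 samples. On the log2 scale the gap was 0.579 of the range, also above that value, but as a percent of both arms it was 0.533, below it. On the ratio scale this was the only one of 10 checks, 5 measures in 2 groups, that exceeded the value, and chance gives such a gap in about 5% of groups. In this heifer the 3p arm had 8609 counts and the 5p arm 32721 counts. The arm ratios of let-7a, miR-423 and miR-6119 in this heifer exceeded the mean of the others by 1.54, 1.16 and 1.22 on the log2 scale, beside 1.19 for miR-151. In SDs of the other heifers these were 1.75, 1.79 and 1.69, beside 4.15 for miR-151. Among names with an arm under 100 counts in a heifer this value reached 3.66 (miR-9) and 3.06 (miR-331), while in others of them the ratio lay below that mean. The checks on other scales were chosen after seeing the data.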

How the results depend on the processing

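No paired analysis was possible because each heifer number occurs in 1 group only. The number of miRNAs past the thresholds, 13 of 341 with the settings reported, was 14 to 16 of 341 under RLE scaling, library totals, DESeq2 and a depth covariate. With a minimum of 10 counts in every heifer it was 14 of only 196, a larger share. It was 126 of 614 with no filter on low counts and 20 of 434 with every line of a name kept. It was 11 (without SFH heifer 17) to 21 (without FH heifer 24) when 1 heifer was left out, and 20 without FH heifer 27. As shares of the miRNAs tested, the settings reported gave 3.81%, no filter 20.5% and every line 4.61%, and the causes were not tested. The log2 fold change of bta-miR-140 kept its direction, at 0.52 to 0.61 over the other settings and 0.43 to 0.74 when 1 heifer was left out. That of bta-miR-151-3p was 0.53, past the thresholds, with library totals only, a scaling that moved the median of all miRNAs from 0.06 to 0.12, and 0.34 to 0.59 when 1 heifer was left out. bta-miR-28, bta-miR-151-5p and the arm ratio stayed on their side of the threshold with the same sign under every setting run, the arm ratio at -0.37 to -0.13 when 1 heifer was left out.

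For bta-miR-140 with bta-miR-28, r = 0.03 turned to -0.13 on residuals from the group means and to -0.12 without the 2 farthest heifers, and ran from -0.16 to 0.16 when 1 heifer was left out. For bta-miR-28 with bta-miR-151-5p it turned to -0.0097 without the 2 farthest heifers and ran from -0.077 to 0.38. For the arms of miR-151 it turned to -0.12 without the 2 farthest heifers. For bta-miR-140 with bta-miR-151-5p it passed the adjusted threshold on residuals, at -0.69, and, in alternatives chosen after seeing the data, at -0.71 with RLE scaling and -0.75 without the 2 farthest heifers, but not with deposited CPM, at -0.62. Each heifer had 1 library, so the spread between animals and that of library preparation cannot be told apart.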

Other observations

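bta-miR-140 was also set against the arm ratio of miR-151, a relation formed after bta-miR-140 had been seen to run against bta-miR-151-5p, so its direction was already set and it is given as a description with no p. r was -0.76 (n = 14) and rho was -0.84. Without SFH heifers 28 and 30, the farthest in bta-miR-140, r was -0.76, and it was -0.79 to -0.71 when any 1 heifer was left out. Within FH r was -0.74 (n = 7) and within SFH -0.78 (n = 7), and on residuals from the group means it was -0.72. bta-miR-28 had r = -0.08 with the same ratio. The relation holds the values of bta-miR-151-5p that the report sets against bta-miR-140, so it is not independent of that pair.

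Of the other 6 names with at least 100 counts on both arms in every heifer, the arm ratio of miR-423 ran with that of miR-151 at r = 0.72 and with bta-miR-140 at r = -0.78, and that of let-7a at r = 0.51 and r = -0.55. The remaining 4, miR-6119, miR-22, miR-142 and miR-425, had r between -0.37 and 0.46 with the miR-151 ratio and between -0.21 and 0.34 with bta-miR-140. These are descriptions over the same 14 heifers with no test.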
